A study of Homo sapiens with 4 samples.

Results

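ETV1, ETV4 and ETV5 form the PEA3 subfamily of ETS transcription factors, and they are described here in untreated and AMG510-resistant cells of the human pancreatic cancer line MIA-PaCa2. The 3 genes were chosen by symbol, as factors known to follow ERK activity, from the 57773 gene IDs in the files. All 3 had enough counts to be tested, among 16090 tested genes. AMG510 (sotorasib) is a covalent inhibitor of a mutant RAS protein, and MIA-PaCa2 is a line that carries such a mutant. The untreated group held 2 libraries from 2 control populations grown without the drug. The resistant group held 2 libraries from 2 populations selected in rising doses over 2 months until they resisted 5 µM, with no statement of whether the drug was present at harvest. One resistant library, replicate 2, carries AMG511 in its treatment field, against AMG510 in its title and in the study design, and was kept as resistant.

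PEA3 factors bind DNA through an ETS domain that reads sites with a GGAA core, and activate genes of growth, migration and branching. ERK raises them by several routes: it phosphorylates the proteins, and it relieves their genes from CIC (capicua), a repressor that works with the partners ATXN1 and ATXN1L and binds TGAATG-type octamers. The ubiquitin ligase COP1, which also binds the Tribbles adaptors, marks PEA3 proteins for degradation together with DET1. In pancreatic cancer the PEA3 factors are known as outputs of RAS signalling, and ETV1 has been linked to matrix remodelling.

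The promoter of ETV1 is shown first, because ETV1 had the largest difference of the 3 factors and a CIC octamer lies in 1 of its 6 promoter windows. RefSeq promoter windows (GRCh38.p14, 250 bases before to 50 bases after an annotated start) were searched for the octamers TGAATGAA and TGAATGGA on both strands. ETV1 was the 1 factor of 3 that matched the table, and ETV4 and ETV5 are named only. The 3 factors could therefore not be compared for octamers. One of the 6 windows of ETV1, some of which overlap, held an octamer, and 3.22% of all 27305 genes had at least 1 such window (2.63% of 35116 windows). Its 250 bases before the start lie at chr7:13991426-13991675, minus strand, and the octamer, in capitals, begins 125 bases before the start.
ETV1 upstream: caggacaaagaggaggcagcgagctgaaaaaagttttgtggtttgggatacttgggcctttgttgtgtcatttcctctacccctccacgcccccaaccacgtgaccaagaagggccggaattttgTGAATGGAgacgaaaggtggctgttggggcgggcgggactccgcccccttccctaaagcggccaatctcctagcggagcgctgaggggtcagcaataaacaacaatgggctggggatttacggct
The lists of other CIC-repressed genes and of MAPK activity score genes, both described further on, hold 15 genes, of which 12 had a window and 2 an octamer, EPHA2 and SPRED3, beside the same 3.22% over all genes. The 30 bases around each octamer are set below that of ETV1 for comparison, each read along its gene's strand.
ETV1: ccggaattttgTGAATGGAgacgaaaggtg
EPHA2: cacgcagggcaTGAATGAAcaggagtcggt
SPRED3: cttgatttttgTGAATGAAatgctctctgg
A match of letters describes the window and does not show binding by CIC. Genes with more windows have more chances of a match, which the share over all genes does not take into account.

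Expected counts summed to between 30146559 and 38052558 per library. KRT8 and KRT18, keratins of ductal tumour cells, stood at 957 to 3091 CPM in every library and VIM at 5575 to 7906 CPM, whereas EPCAM (1.33 to 2.08 CPM) was low and KRT7 (0.148 to 0.401 CPM) nearly absent. KRT8 and KRT18 were lower in resistant cells (adjusted p = 0.00268 and 0.00692), and they overlap each other on opposite strands. Of 13 markers of other cell types 12 had an ID, 2 of them (PRSS1 and INS) at 0 in all libraries. Their sum was 20.6 and 21.0 CPM in untreated and 47.9 and 15.7 CPM in resistant libraries. CD68, a macrophage marker also found in other cells, made up most of that sum in resistant replicate 1, with 10.3 and 13.7 CPM in untreated and 33.7 and 9.39 CPM in resistant libraries (adjusted p = 0.376). It shares 81.7% of its exon bases with a gene on the same strand. That gene had 936 and 654 expected counts in untreated and 409 and 441 in resistant libraries. CD68 values therefore depend on how shared reads were assigned. The other blood markers were low, PTPRC at 0.134 CPM or less and CD3E with 1 count in all. CDH5, an endothelial cadherin, had 8.12 and 3.87 CPM against 5.28 and 0.711 CPM (adjusted p = 0.470). Of the stromal markers PDGFRB rose from 0.121 ± 0.0939 to 3.62 ± 2.06 CPM (adjusted p = 7.69e-04), ACTA2 was not called (log2 fold change 0.52, adjusted p = 0.361) and LUM had at most 7 counts in a library. The part of these markers in the results was not tested. Beyond speaking of 2 populations a group, the labels do not say how separately they were kept, so p-values measure only the spread between these libraries.

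All 3 PEA3 factors fell in the resistant libraries, and by very different amounts. ETV1 was nearly absent from resistant cells, ETV4 kept 6.50% of its untreated level and ETV5 kept 24.8%. No resistant library overlapped an untreated one for any of the 3 genes. A gene was called when its adjusted p was below 0.05 in edgeR's quasi-likelihood test (Benjamini-Hochberg method, over all tested genes), and 3 of 3 were called lower. Of all tested genes 17.4% were called lower, and in 36.3% the resistant libraries both lay below the untreated ones.

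ETV1 (ENSG00000006468, chromosome 7) is the member best known as an oncogene when rearranged in prostate cancer. It had 1394 and 1412 counts in untreated replicates 1 and 2, and 2 and 1 counts in resistant replicates 1 and 2. As CPM (counts scaled to library size), these were 37.8 and 37.7 against 0.0690 and 0.0296 CPM. Both resistant values lay below the level that 3 counts would give (0.0888 to 0.104 CPM), so their order says nothing. Over the groups, 2806 counts stood against 3, which put ETV1 789 times lower, with 95% limits of 269.8 and 3830 that cover counting error only. The fitted log2 fold change was −9.52 (SE 0.37, adjusted p = 1.58e-07), a value that depends on the small prior count added in the fit. Only 7 tested genes had a lower one.

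ETV4 (ENSG00000175832, chromosome 17), also called PEA3 or E1AF, gave the subfamily its name. Its untreated libraries held 37.8 and 33.2 CPM, and its resistant libraries 2.52 and 2.10 CPM, from 73 and 71 counts. The group means were 35.5 ± 3.25 CPM and 2.31 ± 0.294 CPM (SD, n = 2), a 15.4-fold difference. The log2 fold change was −3.94 (SE 0.24, adjusted p = 2.55e-06), and 103 tested genes had a lower one. ETV4 shares 68 exon bases (1.89% of its annotated exons) with DHX8, an RNA helicase gene on the opposite strand, and reads there cannot be assigned without the strand setting. DHX8 itself had 99.6 and 106.9 CPM in untreated and 103.4 and 96.6 CPM in resistant libraries, a log2 fold change of −0.05 (adjusted p = 0.838) that was above 0 without resistant replicate 2.

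ETV5 (ENSG00000244405, chromosome 3), also called ERM, was the most abundant of the 3 in every library. It had 70.5 and 61.6 CPM in untreated libraries and 18.5 and 14.2 CPM in resistant ones. The means were 66.0 ± 6.26 CPM and 16.4 ± 3.03 CPM (SD, n = 2), 4.04-fold apart. The log2 fold change was −2.01 (SE 0.19, adjusted p = 5.95e-05), and 2.55% of tested genes had a lower one. The antisense gene ETV5-AS1, which shares no exon base with ETV5, had 0 counts in every library, and DGKG, which shares 164 bases, had at most 2. In RNA from whole cultures, fewer expressing cells and less RNA per cell cannot be told apart.

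**Figure D1:**
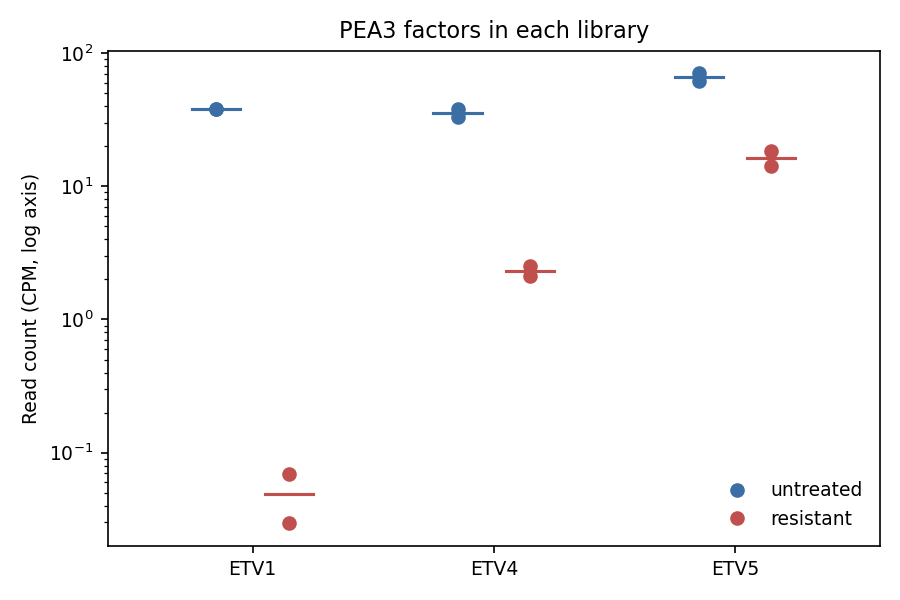
Read counts normalised to library size (CPM, log axis) of the PEA3 factors in each library, with points for libraries and bars for group means (2 libraries per group). ETV1 lies at 37.7 and 37.8 CPM in untreated libraries and below 0.1 CPM in resistant ones, and the gap between groups is smaller for ETV4 and smallest for ETV5.

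The direction of these differences held in all 12 alternative analyses, and so did the calls. ETV1 ranged from −10.14 to −9.02 in log2 fold change over the 13 settings, ETV4 from −4.06 to −3.82 and ETV5 from −2.20 to −1.84. The highest adjusted p was 1.56e-04, for ETV5 with upper-quartile scaling. Leaving out 1 resistant library gave both ends of each range.

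**Figure D2:**
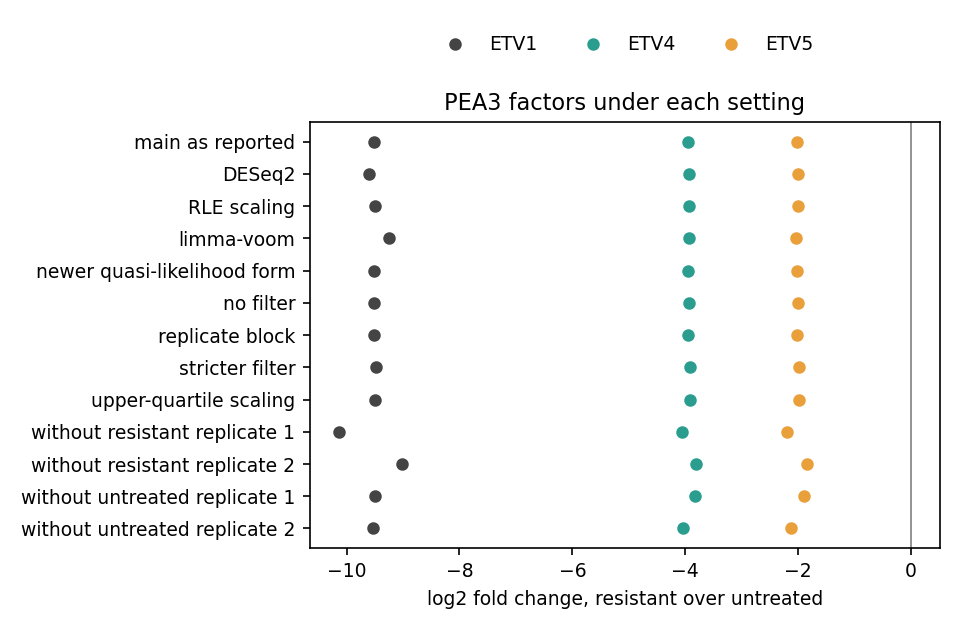
log2 fold change (resistant over untreated, x axis) of ETV1, ETV4 and ETV5 in the reported fit and under 12 alternatives (y axis). The 3 genes keep their order at each setting and stay below 0, with ETV5 between −2.20 and −1.84.

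Levels were compared between the genes per kb of annotated exon, since longer transcripts yield more reads. Untreated cells held ETV5 at 11.4 ± 1.08, ETV4 at 9.85 ± 0.901 and ETV1 at 3.92 ± 0.00204 CPM per kb (SD, n = 2). The SD of ETV1, from libraries with 1394 and 1412 counts, is smaller than counting error alone would give. The ranges of mean ± SD of ETV5 and ETV4 overlapped, although ETV5 was the higher in each library, and ETV1 lay below both. With the longest annotated transcript as the length, an alternative added after seeing the data, the untreated values were 16.1, 14.6 and 5.60 CPM per kb, in the same order. In resistant cells the levels were 2.82 ± 0.522 for ETV5, 0.641 ± 0.0816 for ETV4 and 0.00513 ± 0.00290 CPM per kb for ETV1. These 3 values were separated by more than their spread.

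The make-up of the subfamily differed as well. Summed per kb, the 3 factors came to 25.2 ± 1.98 CPM per kb in untreated and 3.46 ± 0.606 CPM per kb in resistant cells (SD, n = 2). ETV5 supplied 45.7% and 44.7% of that sum in untreated libraries, and 81.9% and 80.7% in resistant ones. ETV4 supplied 39.5% and 38.8% in untreated, and 17.9% and 19.2% in resistant libraries. The share of ETV1 was 14.8% and 16.5% in untreated libraries and at most 0.184% in resistant ones. The log2 ratio of ETV4 to ETV5 was −0.21 ± 0.0048 in untreated and −2.13 ± 0.085 in resistant libraries. An exact 2-sided permutation test over the libraries gave p = 0.333 for each of the 3 pairs of genes. This is the smallest p that 6 splits of 4 libraries allow, so the test could not decide whether the falls differed in size. The unequal size of the falls is given as a description.

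Of the 25 other human ETS genes 18 were tested, 6 of them higher in resistant cells, 2 lower and 10 not called, with a median log2 fold change of 0.12 beside −0.01 over all tested genes. Of all tested genes 34.0% were called in either direction and 16.6% were called higher. Among the 21 tested ETS genes the PEA3 factors had the 3 lowest log2 fold changes. Ranked by CPM per kb among all 28 ETS genes, ETV5 went from places 4 and 5 in untreated libraries to 13 and 15 in resistant ones, and ETV4 from 7 and 6 to 18 and 18.

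ELF5, an epithelial ETS factor known from mammary alveolar cells, was 1.08 and 2.54 CPM in untreated and 176 and 151.5 CPM in resistant libraries. It rose by 6.50 in log2 (SE 0.36, adjusted p = 2.15e-05), and ranked 1 and 2 among ETS genes in resistant libraries after rank 18 in both untreated ones. FLI1, a factor of blood and endothelial cells, rose by 5.52 in log2 (SE 0.46, adjusted p = 2.66e-05), from 0.148 ± 0.0204 CPM to 6.96 ± 0.887 CPM. ETS1, the founding member of the family, rose from 31.1 ± 2.02 to 88.9 ± 12.7 CPM (1.52, SE 0.17, adjusted p = 1.70e-04). These 3 genes lie on chromosome 11, as does EHF, which was not called. The median over tested protein-coding genes of chromosome 11 was 0.42. The part of that shift in the differences of these genes was not tested.

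ELK1, a ternary complex factor that ERK phosphorylates at serum response elements, rose by 0.74 in log2 (SE 0.17, adjusted p = 0.00679), and ELK4, of the same group, by 0.72 (SE 0.17, adjusted p = 0.00764). ELF1, a factor of lymphoid genes, rose by 0.75 (SE 0.20, adjusted p = 0.0165), a call lost without untreated replicate 1 and without resistant replicate 2 (adjusted p = 0.0871 at most). ELK4 and ELF1 were named after their values were seen, and each shares under 4% of its exon bases with a gene on the opposite strand (MFSD4A and WBP4). ETV6, a repressor, and ELF3, an epithelial factor, fell by 0.78 (SE 0.20, adjusted p = 0.0136) and 0.65 (SE 0.20, adjusted p = 0.0278). The call of ETV6 was lost when untreated replicate 1 (adjusted p = 0.0669) or the first resistant library (0.0802) was left out. That of ELF3 was lost when untreated replicate 2 (0.229) or the second resistant library (0.0522) was left out. ELF3 shares 9.23% of its exon bases with ELF3-AS1. ERF, a repressor that ERK phosphorylates, was not called (0.16, adjusted p = 0.538, and −0.04 without untreated replicate 2). EHF, an epithelial relative of ELF5, was not called either (0.34, adjusted p = 0.139).

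**Figure D3:**
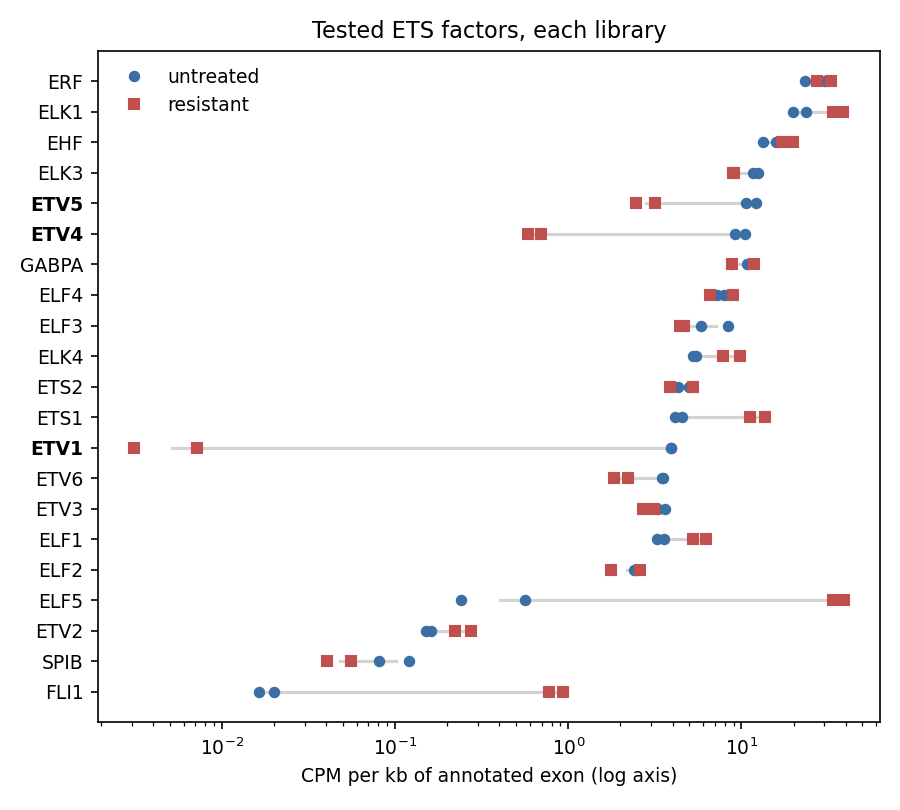
CPM per kb of annotated exon (log axis) of the 21 tested ETS genes in each untreated (circles) and resistant (squares) library, sorted by untreated level, with PEA3 factors in bold and a grey line between group means. ETV1, ETV4 and ETV5 move left, whereas ELF5, FLI1 and ETS1 move right.

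CIC, a repressor of the PEA3 genes, was measured as RNA only, and its part in their fall was not tested. Its RNA was more abundant in resistant cells. It had 94.9 and 102.3 CPM in untreated and 248 and 183 CPM in resistant libraries, so the groups did not overlap, as in 34.6% of all tested genes with both resistant libraries higher. Its log2 fold change was 1.13 (SE 0.18, adjusted p = 0.00141), beside a chromosome 19 median of 0.045. ATXN1L, the partner that stabilises CIC, rose from 57.3 ± 2.39 to 109 ± 5.64 CPM (0.92, SE 0.15, adjusted p = 0.00149), and shares 2.26% of its exon bases with IST1. TRIB2, a Tribbles pseudokinase, fell from 78.3 and 77.2 CPM to 22.6 and 24.1 CPM (−1.73, SE 0.16, adjusted p = 4.89e-05). Of the 16 listed regulators 3 were called higher, 3 lower and 10 not, near the shares over all tested genes (16.6% higher and 17.4% lower), with a median of 0.05. Without untreated replicate 1 the list had 2 higher and 1 lower. ATXN1, the other CIC partner, rose by 1.89 (adjusted p = 0.0310) from 9 and 32 counts to 62 and 66, and was not called without untreated replicate 1 (adjusted p = 0.161). ATXN1 was named after its values were seen.

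CREBBP, an acetyltransferase and coactivator, fell by 0.53 (SE 0.15, adjusted p = 0.0221), but its call was lost without each library in turn except resistant replicate 2 (adjusted p = 0.0647 to 0.168). Its relative EP300 was not called (0.43, adjusted p = 0.0645, and 0.0467 with a stricter filter), nor was DDB1, the adaptor of the ligase that COP1 and DET1 join (0.27, adjusted p = 0.217). DDB1 shares 3.73% of its exon bases with TKFC. COP1, the ligase itself, named for its role after its values were seen, had a log2 fold change of −0.51 (adjusted p = 0.0518).

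Most of the other listed genes known to be repressed by CIC were lower in resistant cells. Of 10, 7 fell, 0 rose and 3 were not called, beside 17.4% of all tested genes called lower and 16.6% higher, with a median log2 fold change of −1.19. The list was chosen with earlier results of these data known, so its share is a description and not independent support. Without untreated replicate 1 only 3 were called, all lower. SPRY4, a feedback inhibitor of receptor signalling, had 223.7 and 152 CPM in untreated and 33.5 and 29.5 CPM in resistant libraries (−2.58, SE 0.21, adjusted p = 2.58e-05). SHC3, a neuronal adaptor of receptor kinases, fell from 16.0 ± 0.820 to 6.04 ± 2.05 CPM (−1.41, SE 0.28, adjusted p = 0.00410). SPRED1, an inhibitor of RAS activation, fell from 22.6 ± 1.53 to 11.6 ± 0.979 CPM (−0.96, SE 0.21, adjusted p = 0.00611). GPR3, an orphan receptor, fell by 1.64 (SE 0.40, adjusted p = 0.0108) and was not called without untreated replicate 1 (adjusted p = 0.0638). SPRED2, a relative of SPRED1, fell by 0.69 (adjusted p = 0.0125) and lost its call without untreated replicate 1 (0.0662) and without resistant replicate 2 (0.0521). DUSP4, a nuclear ERK phosphatase, fell by 1.48 (adjusted p = 0.0272) and was called under no omission of a single library (0.05001 to 0.113). SPRED2 and DUSP4 were named after their values were seen.

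The phosphatase PTPN9 was not called (0.28, adjusted p = 0.205), nor was FOSL1, an AP-1 subunit (−0.29, adjusted p = 0.331), which was above 0 without untreated replicate 1. SPRED3, whose window holds the octamer shown above, was not called (0.16, adjusted p = 0.776), and EPHA2, with the other one, fell by 0.68 (adjusted p = 0.0182), a call lost without untreated replicate 1 (0.179) and without resistant replicate 2 (0.0803). Both were named for their octamers, after their values were seen. Across all tested genes with a RefSeq window, 58 of the 271 with either octamer were called lower (21.4%), beside 19.3% of all 11124. Their median log2 fold changes were −0.05 and −0.03.

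The genes of the MAPK activity score, a published readout of ERK output that also contains ETV4 and ETV5, fell for the most part. Of the 8 others 6 fell, 1 rose and 1 was not called, with a median of −1.48, beside 17.4% of all tested genes called lower and 16.6% higher. SPRY4, DUSP4 and DUSP6 are also in the CIC list, so the lists are not independent of each other. The MAPK list too was chosen with earlier results of these data known, and its share is a description. Without untreated replicate 1 the counts were 3 lower and 0 higher. CCND1, the cyclin D1 gene, had 188 and 151 CPM in untreated and 38.6 and 33.0 CPM in resistant libraries (−2.24, SE 0.18, adjusted p = 1.98e-05). It shares 10.3% of its exon bases with LTO1 on the opposite strand. SPRY2, a relative of SPRY4, fell from 159.7 ± 0.427 to 56.7 ± 12.8 CPM (−1.49, SE 0.18, adjusted p = 2.97e-04).

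DUSP6, the phosphatase of ERK itself, was low throughout, at 2.06 and 0.481 CPM in untreated and 0.138 and 0.0296 CPM in resistant libraries. Its log2 fold change was −3.91 (SE 0.94, adjusted p = 0.0112), and −2.49 with an adjusted p = 0.175 without untreated replicate 1. EPHA4, an ephrin receptor, rose by 0.58 (SE 0.16, adjusted p = 0.0197), a call lost when untreated replicate 1 (0.138) or the first resistant library (0.0983) was left out. PHLDA1, a pleckstrin-domain protein, was not called (0.15, adjusted p = 0.655, and −0.25 without resistant replicate 1).

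The kinases that carry the signal to the PEA3 factors were mostly not called. Of 14 genes from RAS to the ERK-activated RSK and MSK kinases 2 were higher, 0 lower and 12 not called, with a median of 0.04, beside 16.6% of all tested genes called higher and 17.4% lower. ARAF, a RAF kinase, rose by 0.78 (SE 0.17, adjusted p = 0.00693). RPS6KA2, an RSK kinase, rose by 1.07 (SE 0.34, adjusted p = 0.0325) and lost its call when untreated replicate 1 (0.189) or the second resistant library (0.0798) was left out. Without untreated replicate 1 only 1 gene of the list was called, and DESeq2, no filter and a replicate block each called 3. MAP2K2, which encodes MEK2, had 375 and 339 CPM in untreated and 869 and 412 CPM in resistant libraries (0.84, adjusted p = 0.100). Resistant replicate 1 stands apart there, and the gene was called with DESeq2 (adjusted p = 0.00766), with no filter (1.38e-04), with a replicate block (0.0448) and without resistant replicate 2 (7.09e-05). Protein and phosphorylation were not measured, so these values say nothing of kinase activity.

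Of 20 genes listed as reported targets of PEA3 factors 12 were tested, 2 of them higher, 4 lower and 6 not called, with a median of 0.01. Over all tested genes 16.6% were called higher, about the same share as in the list. Called lower were 17.4%, a smaller share than the 4 of 12 in the list. The list is small and was chosen with earlier results of these data known, so this is a description. MMP1, the interstitial collagenase, had 7.56 and 3.98 CPM in untreated libraries and 0 counts in resistant ones. Its 428 untreated counts made it at least 120.0-fold lower against 3 counts over the resistant group (adjusted p = 7.73e-05). PLAUR, the urokinase receptor, fell from 26.1 and 26.6 CPM to 7.04 and 4.97 CPM (−2.13, SE 0.24, adjusted p = 1.84e-04). CCND3, the cyclin D3 gene, fell by 0.96 (SE 0.19, adjusted p = 0.00390). TERT, the telomerase gene, named after its values were seen, fell by 1.27 (adjusted p = 0.0352) and was called under no omission of a single library (0.0613 to 0.156).

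SPARC, a matrix glycoprotein reported as a target of ETV1 in pancreatic cancer, went the other way. It had 0.515 and 0.347 CPM in untreated and 47.8 and 40.4 CPM in resistant libraries (6.67, SE 0.29, adjusted p = 3.48e-07). CCND2, the cyclin D2 gene, rose by 3.29 (SE 0.73, adjusted p = 0.00719) from 0.271 and 0.187 CPM to 3.66 and 0.918 CPM. Its value was 2.00 without resistant replicate 1 (adjusted p = 0.0772), and it was not called without untreated replicate 1 (adjusted p = 0.0502). VIM (0.33, adjusted p = 0.160) and PLAU, the urokinase gene (0.13, adjusted p = 0.585), were abundant and not called. PLAU shares 31.1% of its exon bases, and VIM 12.4%, with genes on the opposite strand.

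**Figure D4:**
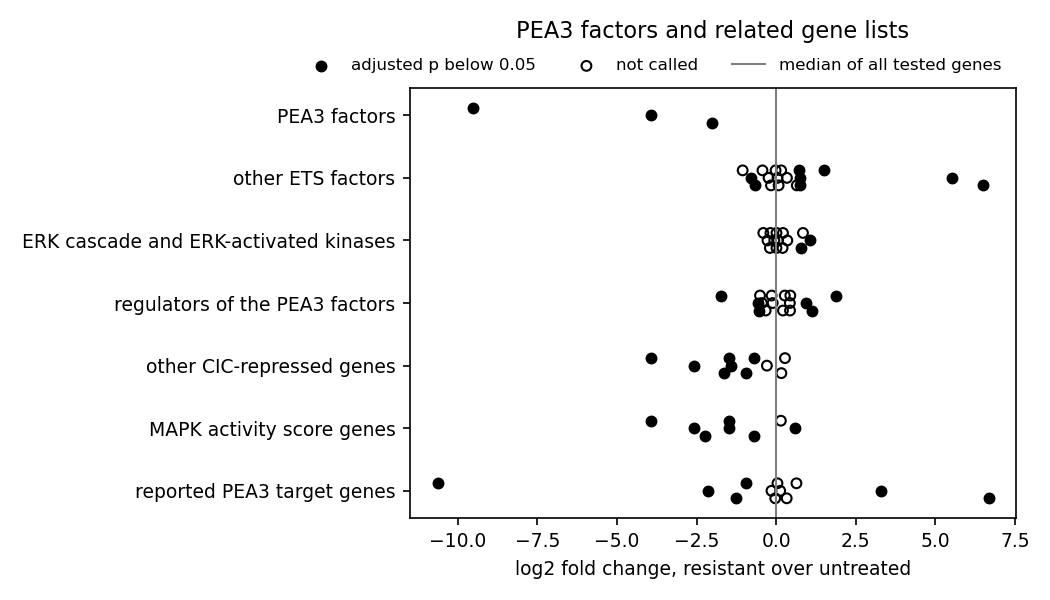
log2 fold change (resistant over untreated) of the PEA3 factors and of the tested genes of 6 related lists, filled where the adjusted p was below 0.05, with a grey line at the median of all tested genes (−0.01). The CIC-repressed and MAPK score lists lie mostly left of the line, while regulators, kinases, other ETS factors and reported targets lie on both sides. MMP1, the leftmost point, had 0 resistant counts, so its place depends on the fit's prior count.

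Genes near each PEA3 factor along the chromosome are described here. Of the 10 tested protein-coding genes nearest to ETV1 in gene order 1 was higher and 2 lower, with a median log2 fold change of 0.10, and the chromosome 7 median was 0.22. The 10 around ETV4 had 3 higher and 3 lower with a median of −0.09, and the 10 around ETV5 had 3 higher and 2 lower with a median of 0.41. Over all tested genes 34.0% were called in either direction. None of the 3 neighbourhoods had a median near its PEA3 factor's value, but a median can miss a change in a few genes. Whether a difference extended along the chromosome was not tested.

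The gene next to ETV4 on the side away from DHX8 was MEOX1, a homeobox factor, with 27 and 50 counts in untreated and 0 in resistant libraries. It was at least 21.7-fold lower against 3 counts over the group (adjusted p = 0.00130). Next to ETV5, TRA2B, a splicing factor, fell from 236 and 163 CPM to 61.5 and 95.6 CPM (−1.34, SE 0.25, adjusted p = 0.00451). CRYGS, a crystallin gene on the other side, was not called (1.10, adjusted p = 0.0515, and adjusted p down to 0.0391 under 5 alternatives).

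**Figure D5:**
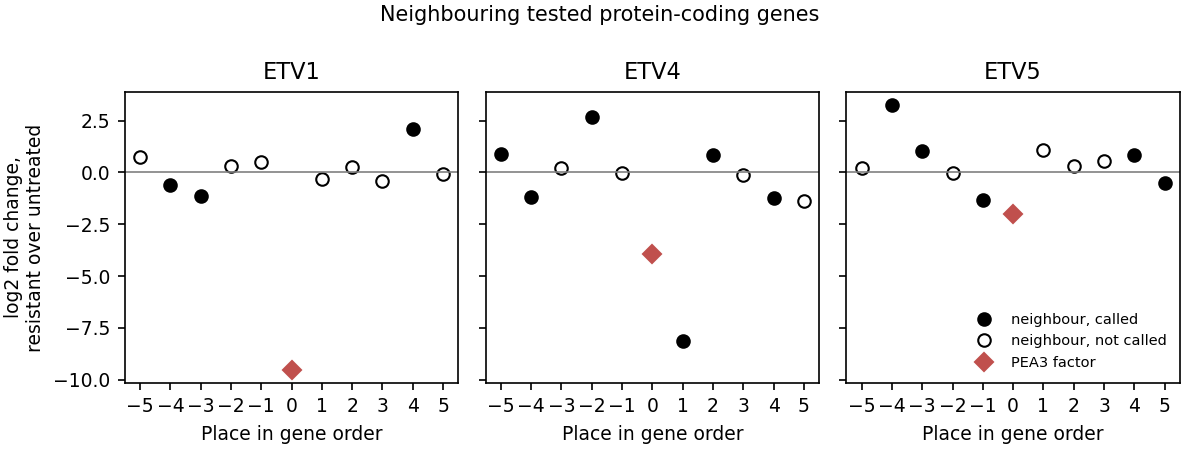
log2 fold change of the 5 tested protein-coding genes on each side of ETV1, ETV4 and ETV5 (x axis, place in gene order, not distance), filled where called, with the PEA3 factor as a diamond. Neighbours scatter on both sides of 0. MEOX1, the low point beside ETV4, had 0 resistant counts, so its place depends on the prior count.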

How the data were processed

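Expected counts per gene, 1 table per library and not scaled to depth, were deposited by the authors. Tools named in the submitters' processing notes were STAR 2.7.2b and RSEM 1.3.1, with build GRCh37, and the annotation release and strand setting are not given in the sources used here. Expected counts were rounded to whole numbers (93.6% already were), and symbols came from a gene name table (39538 IDs). Genes were filtered with filterByExpr, scaled with TMM and tested with edgeR 4.0.16 (quasi-likelihood, robust, R 4.3.3), with group as the only term and Benjamini-Hochberg adjustment over 16090 genes. Group values are mean ± SD of CPM over 2 libraries. GENCODE 29 gave exon lengths, overlaps and gene order only, being of another build. The test was tried on simulated counts first. Alternatives tried were scaling by RLE or upper quartile, no filter or a stricter one, DESeq2 1.42.0, limma-voom (limma 3.58.1), edgeR's newer quasi-likelihood form, a replicate block, and each library left out.

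The genes and lists were chosen with earlier results of these data known. Named genes were the PEA3 factors, CIC, up to 4 called genes per list with the smallest adjusted p, up to 2 not called with the highest level, called genes against their list's main direction, each factor's nearest neighbours and overlapping genes, and its 3 most similar genes. Genes named outside this rule are marked where they appear. Some genes that the rule names are not reported here.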

Additional observations from a re-analysis of the deposited data

How the results depend on the processing

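Leaving out 1 library moved the number of called genes from 5463 to between 2832 and 5041, and other alternatives gave 5201 to 6235. The lowest, 2832 (1510 higher, 1322 lower), came without untreated replicate 1. Under the same omissions the called genes numbered 3 to 6 for the CIC-repressed list, 3 to 6 for the MAPK score list, 3 to 6 for the regulators and 1 to 2 for the kinases. ETV1 lay between −10.14 and −9.02, ETV4 between −4.06 and −3.82 and ETV5 between −2.20 and −1.84. No PEA3 factor lost its call. Signs turned only in genes that were not called. With each library left out in turn, ERF ranged from −0.0353 to 0.388, FOSL1 from −0.564 to 0.0535, DHX8 from −0.0808 to 5.0e-04 and PHLDA1 from −0.254 to 0.470.

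The replicate numbers are shared between groups, but nothing says that they pair libraries, and deviations of same-numbered libraries correlated at −0.0604 across genes. With a replicate block 5275 genes were called, and ETV1, ETV4 and ETV5 had log2 fold changes of −9.52, −3.94 and −2.02. Depth limits ETV1 in resistant cells, where 3 counts allow no finer statement than the interval given.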

Other observations

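The genes whose profiles came nearest to each PEA3 factor were found by Euclidean distance between log2 CPM values over the 4 libraries, after subtracting the untreated mean. For ETV1 they were NTSR1, the neurotensin receptor, CTSC, the protease cathepsin C, and KIAA1755, at distances of 1.19, 1.32 and 2.43. NTSR1 went from 85.1 and 61.9 CPM in untreated to 0.483 and 0.118 CPM in resistant libraries. CTSC had 180 and 65.3 CPM against 0.172 and 0.296 CPM, and was not called without resistant replicate 2 (edgeR adjusted p = 0.193). KIAA1755 had 591 untreated counts and 1 resistant count, 498.8 times lower with 95% counting limits of 89.2 and 19730.

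For ETV4 the nearest were CNIH3, ACOX2 and CITED1, at distances of 0.290, 0.344 and 0.353. CNIH3, an auxiliary protein of glutamate receptors, had 47.9 and 49.2 CPM in untreated and 3.62 and 2.46 CPM in resistant libraries. ACOX2, an enzyme of peroxisomal oxidation, fell from 5.66 ± 0.611 to 0.288 ± 0.0311 CPM (SD, n = 2). CITED1, a transcriptional coregulator, had 72 untreated counts and 1 resistant count, 60.8 times lower (95% counting limits 10.6 and 2433). For ETV5 the nearest were PYGB, the brain form of glycogen phosphorylase, IGFBP4, which binds insulin-like growth factors, and DNAH11, a ciliary dynein, at distances of 0.0530, 0.0941 and 0.0986. PYGB went from 927 and 808 CPM to 244 and 180.5 CPM, and IGFBP4 from 212 and 195 CPM to 56.3 and 41.8 CPM. DNAH11 was low, from 1.19 and 0.988 CPM to 0.276 and 0.178 CPM, and was not called with DESeq2, without untreated replicate 1 or without resistant replicate 2 (adjusted p up to 0.112). With 4 libraries in 2 groups, nearness mostly reflects the size of the fall on this scale. A prior count of 2 was added to these log2 CPM values, which shrinks the falls of genes with few counts. CITED1 had a fitted log2 fold change of −5.63, beside −3.94 for ETV4, so its nearness does not mean an equal fall.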
